A study of Drosophila melanogaster with 31 samples.

Results

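Ovaries that lack bam function were compared with control ovaries of Drosophila melanogaster by RNA-seq of poly(A) RNA, in 4 of the 31 libraries of the series. The 4 were chosen by their labels and not by any measured value, as the bam RNAi input and the bam mutant against the 2 control inputs. The bam RNAi input is labelled nosGAL4>bam RNAi, in which a germline GAL4 driver acts on a hairpin against bam, so the knockdown is limited to cells with that driver. The bam mutant is labelled with the allele bam{delta}86, a deletion allele, with no second allele given. Control input 1 carries UAS-Dcr-2 and the nos GAL4 driver in a w[1118] background, and control input 2 is a pelo1/CyO heterozygote, so the controls also differ in genotype. All 4 were whole ovaries dissected 1 to 3 days after eclosion, and an input is the total mRNA that matches a polysome gradient. The bam RNAi polysome library was not used, and the bam mutant is labelled neither input nor polysome, and as total RNA with poly(A) enrichment where the other 3 are labelled polyA RNA. Each bam genotype stands on 1 library. They were treated as 1 group of 2, so that their disagreement counts as spread, and nothing in the labels says how many animals or preparations a library holds.

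In the Drosophila ovary a germline stem cell at the tip of the germarium divides into a new stem cell and a cystoblast. BMP signals from the niche silence bam transcription in the stem cell, and the cystoblast turns bam on, divides into a cyst and goes on to make an oocyte with its nurse cells. Without bam the daughters keep dividing as single undifferentiated cells, and ovaries fill with them instead of with egg chambers. The study's title concerns the passage from a germ cell to a maternal program, and in that question the bam libraries stand for germ cells before they differentiate.

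Levels are TPM, the share of transcripts scaled by length and brought to the same total in each library over 9251 genes, and differences are between means of log2(TPM + 1), which understates the change of weakly expressed genes. Read depth is not known, because TPM keep no counts. Tests are limma's moderated test over 8734 genes with at least 1 TPM in 2 of 8 libraries. The pelo mutant inputs and the tst RNAi inputs added to the estimate of spread. A gene is said to rise or fall where the Benjamini-Hochberg adjusted p was under 0.05. The p values measure the spread between these samples, which may in part be technical. In these bulk libraries fewer cells of a type and less RNA per cell cannot be told apart. Between 7477 and 7542 genes reached 1 TPM in the control inputs, against 8404 in the bam RNAi input and 8675 in the bam mutant. Across the tested genes Spearman's rho was 0.93 between the bam libraries, 0.97 between the controls, and 0.76 to 0.80 between a bam library and a control, as a description with genes as points.

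The target itself was low in each bam library. Transcripts of bam (chromosome 3R, 25243039 to 25245109, Release 6) stood at 65.1 and 40.1 TPM in the control inputs, 3.10 TPM under bam RNAi and 5.61 TPM in the mutant. The bam and control values did not overlap, and the log2 difference was -3.32 (SE 0.34, adjusted p = 1.83e-04). Germ cells were present by the helicase gene vas, at 291 and 216 TPM in the controls, 553 in bam RNAi and 349.7 in the mutant, which rose by 0.81 (SE 0.25, adjusted p = 0.0299). The gap junction gene zpg, needed for early germ cell survival, was at 215 and 262 TPM in the controls and 169 and 201 TPM in the bam libraries, and did not pass (adjusted p = 0.119). The germ cell marker nos went the other way from vas, from 516 and 360 TPM in the controls to 136 and 124 TPM in the bam libraries (-1.72, SE 0.21). Among transgene-related genes, chosen after their values were seen, transcripts of Dcr-2 were at 601 TPM in control input 1 and 50.1 TPM in control input 2, and at 229 TPM in bam RNAi and 94.0 TPM in the mutant. The labels give UAS-Dcr-2 for control input 1 and not for bam RNAi, where the level was also above that of control input 2. The eye colour gene w, used as a transgene marker, followed the same order, at 146 and 12.9 TPM against 75.6 and 13.1 TPM.

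Loss of bam went with a change in a large part of the transcriptome. Of 8734 genes 2417 rose (27.7% of genes tested) and 1755 fell (20.1%), or 47.8% in all, and the median log2 difference of all genes was 0.10. In every gene that passed, the bam libraries lay beyond the control inputs in the direction of the call. Over all genes, 40.9% had each bam library above each control and 31.7% had each below. The bam libraries agreed by a stricter rule, in which each also lay at least 1 log2 unit from the control mean, on 1665 higher genes (19.1%) and 785 lower genes (8.99%). Of these, 1644 higher (18.8%) and 779 lower genes (8.92%) also passed the test. The genes that both agreed and passed were 68% of all rises and 98.7% of the agreeing higher genes, and 44.4% of all falls and 99.2% of the agreeing lower genes. Quantile normalization turned the split of calls to 1772 rises and 2047 falls, and moved the median of all genes to -0.03, while equal library medians moved it to 0.22. Without control input 1 there were 1721 rises and 1099 falls.

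Genes on which the bam libraries agreed upward came mostly from the low end of the control range. The median of their mean level was 1.16 TPM in the controls and 17.0 TPM in the bam libraries, and 41.8% of them were under 1 TPM in each control, against 11.8% of all genes tested. Agreeing lower genes had a median of 73.2 TPM in the controls and 19.8 TPM in the bam libraries, and 6.24% of them were under 1 TPM in each bam library. Genes with no name beyond a CG number made up 40.6% of the agreeing higher genes, 36.2% of the lower and 36.5% of all. Genes not annotated as protein-coding were 4.86% of the higher, 4.84% of the lower and 3.60% of all. These shares are descriptions, and the filter on low levels and the choice by direction both bear on the control level.

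**Figure D1:**
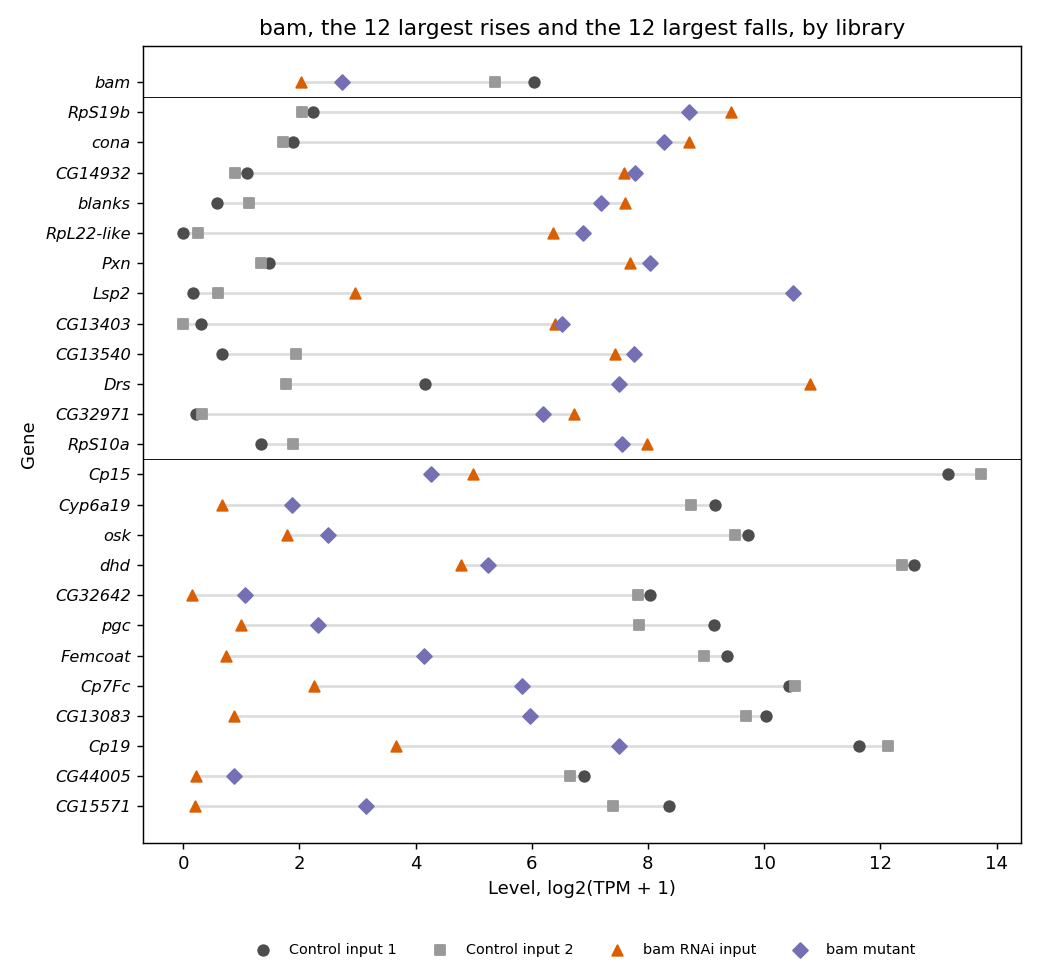
Level of bam, the 12 largest rises and the 12 largest falls in each library, on a log2(TPM + 1) axis, with 1 point per library and a grey line over their range. Control and bam points do not overlap for any gene, and the bam libraries lie at least 3 log2 units apart for Lsp2, Drs, Femcoat, Cp7Fc, CG13083 and Cp19.

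The largest rises included germ cell genes, together with a few blood cell, immune and fat body genes. RpS19b, a ribosomal protein copy expressed in early germ cells, lay at 3.72 and 3.14 TPM in the controls, 689 TPM in bam RNAi and 417 TPM in the mutant (log2 difference 6.93, SE 0.28, adjusted p = 6.13e-06). The copies RpL22-like and RpS10a followed. RpL22-like was listed at 0 and 0.188 TPM in the controls and stood at 81.0 and 117 TPM in the bam libraries, and RpS10a went from 1.54 and 2.69 to 251 and 187 TPM (6.15, SE 0.24). The double-stranded RNA binding gene blanks, known from the testis, was at 0.488 and 1.19 TPM in the controls and at 194 and 146 TPM in bam RNAi and the mutant (6.55, SE 0.30). All 4 genes were low in each control and abundant in each bam library.

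Several of the largest rises had only a CG number. CG14932 was at 1.15 and 0.861 TPM in the controls and 190.2 and 218.2 TPM in the bam libraries (6.68, SE 0.22, adjusted p = 3.87e-06). CG13403 was listed at 0 in control input 2 and at 0.240 TPM in control input 1, and reached 83.9 and 91.3 TPM (6.31, SE 0.57). CG13540 (6.30, SE 0.40) and CG32971 (6.18, SE 0.28) completed this set, and in each the bam libraries were within 1.5 times of each other. Another 4 genes were listed at 0 in each control and were at 5 TPM or more in each bam library, namely lncRNA:CR43870, CG15056, B9d1 and lncRNA:CR42767, chosen for that pattern. The first of them was at 33.1 TPM in bam RNAi and 35.2 TPM in the mutant.

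Of 22 genes, bam itself and regulators that work with it or act in the same switch, 6 rose and 7 fell. The fall of bam is counted here and was set by the design. The share of rises was close to the 27.7% of all genes and that of falls was above the 20.1%. The median log2 difference was -0.63, and -0.31 without control input 1. The partner gene bgcn, whose protein binds Bam, was at 0.633 and 0.279 TPM in the controls and at 53.9 TPM in bam RNAi and 67.2 TPM in the mutant (5.40, SE 0.29, adjusted p = 1.64e-05). The RNA-binding genes Rbp9 (3.16, SE 0.33) and Rbfox1 (1.39, SE 0.35), which act in differentiating cysts, rose too, as did snf (0.94, SE 0.13), a splicing factor in the Sxl pathway. By contrast otu, needed for cyst growth, fell from 437 and 421 TPM to 62.8 and 54.7 TPM (-2.85, SE 0.18), and the translational regulators bru1 (-2.05, SE 0.21), orb (-1.82, SE 0.23), brat (-1.94, SE 0.28) and nos (-1.72, SE 0.21) fell with it. The differentiation gene mei-P26 did not pass, at 43.5 and 22.1 TPM against 12.1 and 17.8 TPM (adjusted p = 0.0582), nor did Sxl (adjusted p = 0.0909). In the BMP response list, which also holds bam among its falls, 6 of 17 genes rose and 3 fell (median 0.32), close to the shares among all genes. There piwi rose from 172 and 193 TPM to 567 and 461 TPM, the receptor gene wit rose (1.60, SE 0.35), the signal transducer Mad fell (-0.98, SE 0.18) and the pathway inhibitor Dad did not pass (0.32, adjusted p = 0.367). Rises in the BMP list were 2 without control input 2 and 3 without the bam RNAi input.

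Genes of the synaptonemal complex and of sister cohesion, which act when cysts enter meiosis, moved both ways. In this list 7 of 19 genes rose and 6 fell (median -0.32, or -0.08 without control input 1). These shares were above the 27.7% and 20.1% of all genes. By the stricter rule of agreement 5 genes of the list were higher and 3 lower. The central region gene cona went from 2.71 and 2.30 TPM in the controls to 415 TPM in bam RNAi and 311 TPM in the mutant (6.69, SE 0.31, adjusted p = 9.80e-06). The cohesion genes ord (5.83, SE 0.31) and sunn (5.40, SE 0.33) rose by similar amounts, and the complex genes corolla (3.17, SE 0.20) and c(3)G (1.21, SE 0.23) by less. The Polo inhibitor gene mtrm, which acts in the oocyte at the end of meiotic prophase, moved the other way, from 515 and 609.6 TPM to 6.77 and 10.9 TPM (-5.87, SE 0.21). The kinesin gene nod (-1.97, SE 0.19) and the centromere gene mei-S332 (-1.09, SE 0.22) fell as well. No gene for the core cohesin subunits SMC1, SMC3 and vtd passed. Among 24 recombination and repair genes 5 rose and 5 fell (median 0.11, or -0.18 after quantile normalization). The share of rises was under the 27.7% of all genes, and that of falls was close to the 20.1%. The crossover genes vilya (4.16, SE 0.30) and hdm (4.04, SE 0.29) rose and the nuclease gene mus81 (-2.61, SE 0.21) fell, while the break-forming genes mei-W68 (0.22) and mei-P22 (-0.10) did not pass.

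The piRNA genes, whose small RNAs silence transposons in the germline and the ovarian soma, were more often higher than lower. Of 36 genes 16 rose and 5 fell (median 0.25). The share of rises was above the 27.7% of all genes, and that of falls was under the 20.1%. Among the rises were the somatic Yb body gene fs(1)Yb, from 1.77 and 2.12 TPM to 44.8 and 47.8 TPM (4.01, SE 0.33), and the germline cluster gene cuff (2.18, SE 0.26). TfIIA-S-2, a transcription factor subunit relative used at piRNA clusters, rose by 4.04 (SE 0.30). The nuage genes qin (2.85, SE 0.35), armi (1.57, SE 0.22), spn-E (1.45, SE 0.27) and aub (1.15, SE 0.24) rose as well. Falls were led by squ, from 209.6 and 166 TPM to 38.7 and 30.4 TPM (-2.41, SE 0.18), with the cluster genes moon (-1.18, SE 0.22) and del (-1.15, SE 0.26). The partner of del in cluster transcription, rhi, did not pass (-0.29, adjusted p = 0.166). Falls in this list were 3 without either control input, and the median was 0.13 without control input 2.

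Few ribosomal protein genes passed, and most of those that did are copies with a paralog. Among 19 copies and their paralogs 5 rose and none fell (median 0.54, or 0.21 without control input 1), namely RpS19b, RpL22-like, RpS10a, RpS5a and RpS14b. The share of rises was close to the 27.7% of all genes. RpS5a went from 812 and 1054 TPM to 2924 and 3229 TPM (1.73, SE 0.19), while its germline paralog RpS5b was at 1276 and 1831 TPM against 1066 and 1272 TPM and did not pass (adjusted p = 0.173). RpS19a, the common paralog of RpS19b, was at 1217 and 2270.3 TPM in the controls and 2398 and 3297 TPM in the bam libraries (adjusted p = 0.0783). Of 68 cytosolic ribosomal protein genes RpL17 alone passed (0.66, SE 0.21, adjusted p = 0.0356), with a list median of 0.22. RpL17 did not pass without control input 1 (0.41, adjusted p = 0.133), without the mutant (0.59, adjusted p = 0.0907), in a fit of the 4 libraries alone (0.66, adjusted p = 0.152) or with TPM rescaled without the eggshell and yolk lists (0.61, adjusted p = 0.0508), and the list median was 0.02 without control input 1. Reads from close paralogs may have been assigned unevenly. Without control input 2 there were 10 rises among the copies and 18 among the cytosolic genes, and without the bam RNAi input 4 cytosolic genes fell. Among 41 ribosome biogenesis genes 5 rose and 10 fell (median -0.26), with the nucleolar gene mbm (-1.49, SE 0.18) and the polymerase I factor Tif-IA (-1.02, SE 0.14) first among the falls, and rises were 1 without control input 1 or without bam RNAi. The median of the biogenesis list was -0.11 without the mutant. Its share of falls was not far above the 20.1% of all genes, and that of rises was under the 27.7%.

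Genes of male germ cells were partly higher. Of 17 tested genes from a list of male germline and spermatocyte genes 9 rose and 3 fell (median 1.39). With no filter on low levels 9 of 23 rose, 3 fell and the median was 0.53. The filter counts the bam libraries, and 14 members passed it when either bam library was left out. Without the mutant 6 rose and the median was 0.50, and after quantile normalization 7 rose, 4 fell and the median was 0.29. The meiotic arrest genes aly (3.57, SE 0.32), mia (2.48, SE 0.27), topi (1.90, SE 0.34) and tomb (2.99, SE 0.60), which drive spermatocyte transcription, rose from low levels, with aly at 0.136 and 0.0513 TPM in the controls and 10.2 and 14 TPM in the bam libraries. Rpt6R, a testis-type proteasome subunit, was at 0.536 TPM and listed at 0 in the controls, against 14.9 and 17.3 TPM. The falls were the cell cycle genes CycB and twe and the gene tzn. Phf7, a promoter of male germline identity, did not pass (0.38, adjusted p = 0.119), and the sperm gene Mst87F was under the filter.

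Genes that equip the oocyte for maturation and early embryogenesis mostly fell. Of 27 genes for oocyte maturation and egg activation 22 fell and none rose (median -2.27). The germline thioredoxin gene dhd dropped from 6089 and 5329.8 TPM in the controls to 26.6 TPM in bam RNAi and 37.2 TPM in the mutant (-7.46, SE 0.22, adjusted p = 3.87e-06). The translational repressor smg, which clears maternal mRNA in the embryo, fell from 822 and 603 TPM to 21.7 and 26.6 TPM (-4.82, SE 0.22). The meiotic kinase gene gwl (-3.05, SE 0.16), the cytoplasmic poly(A) polymerase gene wisp (-5.15, SE 0.30), the maternal tubulin alphaTub67C (-5.17, SE 0.49) and the embryonic regulators cad (-4.95, SE 0.27), zld (-3.42, SE 0.37) and hb (-2.92, SE 0.26) also fell. The egg activation genes png (-3.16), plu (-2.37) and gnu (-2.21), which form a kinase complex, fell together, whereas the calcineurin regulator sra (-0.45, adjusted p = 0.175) and endos (-0.24, adjusted p = 0.235) did not pass.

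The germ plasm and axis mRNA were lower with exceptions. Of 39 genes 23 fell and 5 rose (median -1.14), and without control input 1 the rises were 3. Transcripts of osk, which builds the germ plasm, were at 841 and 718 TPM in the controls, 2.46 TPM in bam RNAi and 4.64 TPM in the mutant (-7.46, SE 0.24, adjusted p = 3.87e-06), and pgc, a transcriptional silencer of pole cells, was at 564 and 229 TPM against 0.994 and 3.97 TPM (-6.84, SE 0.49). The bcd localization genes swa (-4.85, SE 0.16) and exu (-3.33, SE 0.24) and the anterior gene bcd itself (-2.81, SE 0.22) fell. So did the dorsoventral genes spz (-3.51, SE 0.23) and Tl (-2.84, SE 0.28). The signal gene grk, transcribed in the germline, did not pass, at 23.9 and 19.9 TPM in the controls and 18.9 and 22.9 TPM in the bam libraries, with overlapping groups (-0.06, SE 0.21, adjusted p = 0.814). The rises were shu, aub, mael, vas and vls, and all 5 are also on the piRNA list.

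Most genes of mRNA decay and repression did not pass, and those that did fell. In the list of 33 decay and repression genes 8 fell and none rose (median -0.12, or 0.031 after quantile normalization). The share of falls was not far above the 20.1% of all genes. The helicase gene me31B was at 4299 and 3281 TPM in the controls and at 388 and 338 TPM in the bam libraries (-3.37, SE 0.20), and its partner tral fell by 3.00 log2 units (SE 0.19). The decapping factors Edc3 (-1.42, SE 0.32) and Patr-1 (-1.17, SE 0.20) and the deadenylase twin (-0.99, SE 0.18) fell by less, and Caf1-105, a chromatin assembly gene placed in this list, fell too (-1.89, SE 0.15). None of the exosome genes in the list passed, nor did tst (0.09, adjusted p = 0.721) or pelo (-0.65, adjusted p = 0.0651).

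Several cyclin genes and 17 of 38 replication genes fell, while 20 of the replication genes did not pass. Of 29 genes for the fusome, cyst division and ring canals 6 rose and 13 fell (median -0.48, or -0.20 without control input 1). Here and in the replication list, the share of rises was under the 27.7% of all genes. The share of falls was above the 20.1% in each. CycB went from 2526 and 1881 TPM in the controls to 192 TPM in bam RNAi and 182 TPM in the mutant (-3.54, SE 0.17, adjusted p = 1.11e-05), and CycA from 1469 and 871 to 141 and 142 TPM (-2.99, SE 0.23). CycE (-1.89, SE 0.20), CycB3 (-2.13, SE 0.15) and the phosphatase genes stg (-2.99, SE 0.32) and twe (-1.88, SE 0.22) fell with them. The membrane skeleton genes alpha-Spec (2.10, SE 0.27), beta-Spec (2.24, SE 0.34) and hts (0.80, SE 0.28), whose products line the fusome and also many somatic cells, rose. The replication list had 1 rise and a median of -0.51, with the origin factors dup (-1.62, SE 0.15) and Cdc6 (-1.18, SE 0.19), the helicase cofactor CDC45L (-1.53, SE 0.16), the kinase Cdc7 (-2.01, SE 0.24) and the repressor E2f2 (-1.76, SE 0.21) among the falls. The replicative helicase gene Mcm6 was the one that rose (0.59, SE 0.17), and Mcm2, Mcm3, Mcm5, Mcm7 and PCNA did not pass. Without control input 1 there were 10 falls and no rise in the replication list.

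**Figure D2:**
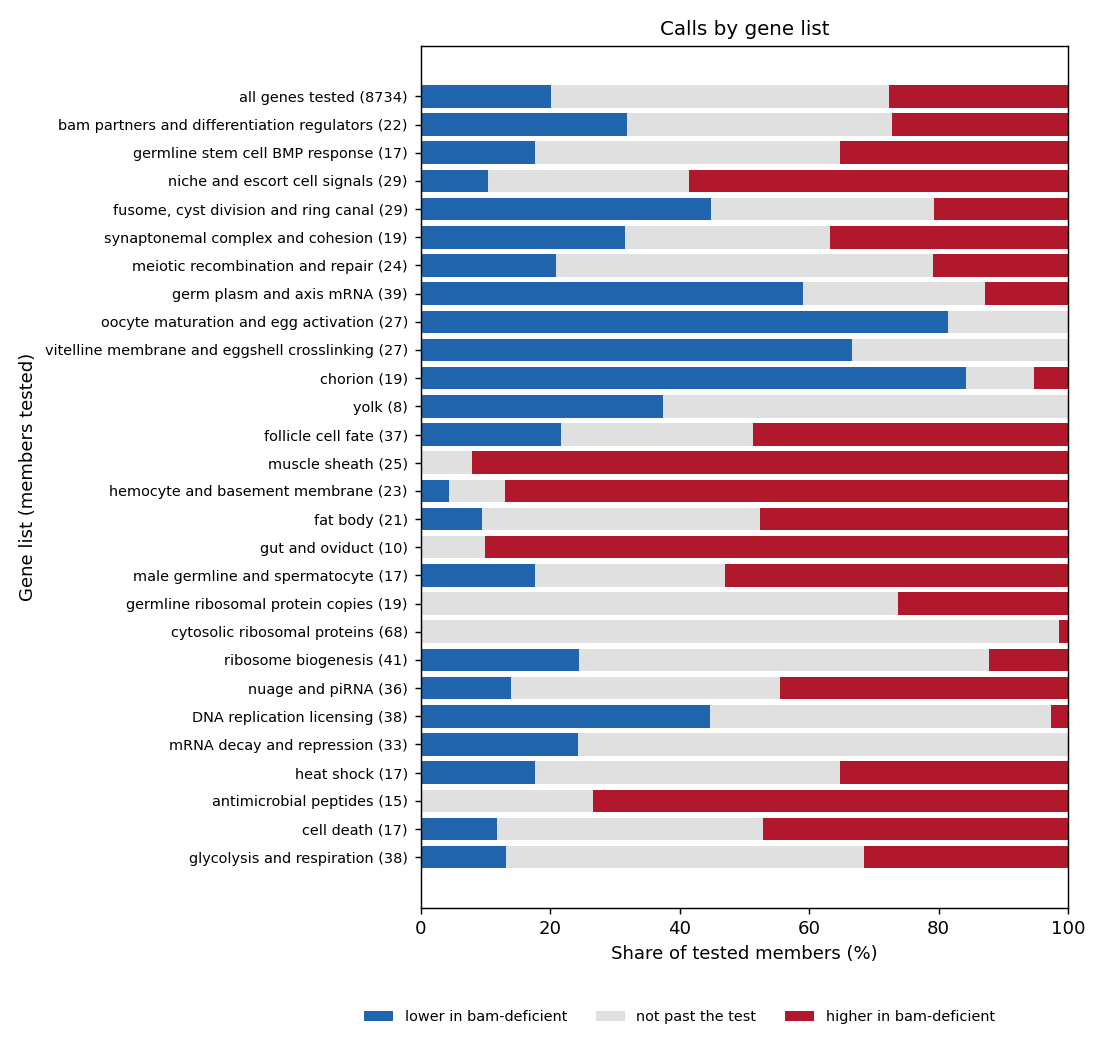
Share of tested members of each list that fell (blue), rose (red) or did not pass the test (grey), with the number tested in brackets and all genes tested in the top row. Of the muscle sheath genes 23 of 25 rose and of the oocyte maturation genes 22 of 27 fell, against 27.7% and 20.1% of all genes, while 67 of 68 cytosolic ribosomal protein genes did not pass.

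Most genes of the eggshell lists fell, many of them further in bam RNAi than in the mutant. Many eggshell genes, though not all on these lists, are expressed by follicle cells of late egg chambers. Of 19 chorion genes 16 fell and 1 rose (median -5.40, or -3.52 without bam RNAi), and of 27 vitelline membrane and crosslinking genes 18 fell and none rose (median -3.89, or -2.44 without bam RNAi). Cp15, a chorion protein gene in a cluster with Cp16, Cp18 and Cp19 on chromosome 3L (8726791 to 8732599, Release 6), was at 9165 and 13549.5 TPM in the controls, 30.7 TPM in bam RNAi and 18.1 TPM in the mutant (-8.82, SE 0.72, adjusted p = 6.53e-05). Its neighbour Cp19 was at 3178 and 4488 TPM in the controls but at 11.6 TPM in bam RNAi against 180.4 TPM in the mutant (-6.30, SE 1.09). Cp16 and Cp18 were, like Cp19, higher in the mutant than in bam RNAi and far under each control, whereas Cp15 was low in each bam library. Femcoat (-6.71, SE 1.13), Cp7Fc (-6.45, SE 0.96), CG14834 (-3.86, SE 0.24) and CG14187 (-3.99, SE 0.37) fell too. The exception was Muc11A, a mucin gene, which rose by 3.10 (SE 1.03), and it did not pass without either control input or without the mutant.

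Some genes of the vitelline membrane list fell to close values in the bam libraries, and others differed between them. The crosslinking gene clos, which is also on the germ plasm and axis list, went from 155 and 123 TPM in the controls to 2.01 and 2.59 TPM (-5.41, SE 0.21). Vm26Ac (-4.19, SE 0.22), fs(1)N (-3.89, SE 0.22) and the peroxidase gene Pxt (-3.15, SE 0.19) also had close values in the bam libraries. The major structural gene Vm26Aa did not pass, at 4598 and 8871 TPM in the controls, 2099 TPM in bam RNAi and 12809.7 TPM in the mutant (adjusted p = 0.758), and Vm26Ab, Vm34Ca, psd and Vml did not pass either. Without the bam RNAi input 3 genes of this list rose. Summed over the list, transcripts made up 22991 and 38019 TPM in the controls, 7706 TPM in bam RNAi and 42873 TPM in the mutant.

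The yolk receptor gene fell, and the yolk protein genes did not pass. The oocyte receptor yl was low in each bam library, at 528 and 504 TPM in the controls against 11.9 and 16.3 TPM (-5.12, SE 0.18, adjusted p = 3.87e-06), and the lipoprotein receptor LpR2 (-2.52, SE 0.23) and the lipid droplet gene Lsd-2 (-2.10, SE 0.26) fell. No other yolk gene of the 8 tested passed. The yolk protein gene Yp1, expressed in follicle cells and fat body, was at 2214 and 5035 TPM in the controls, 1689.7 TPM in bam RNAi and 14858 TPM in the mutant (adjusted p = 0.605). Without the bam RNAi input 4 yolk genes rose, and without the mutant 5 fell.

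Many signals and regulators of the germarium soma were higher. Of 29 niche and escort cell genes 17 rose and 3 fell (median 1.37, or 0.74 after quantile normalization). The escort cell ligand gene Wnt4 was at 0.644 and 0.241 TPM in the controls and at 38.9 TPM in bam RNAi and 43.6 TPM in the mutant (4.88, SE 0.35, adjusted p = 4.38e-05). The BMP ligand gene gbb, from 10.7 and 10.5 to 117 and 96.8 TPM (3.20, SE 0.24), and Wnt2 (3.52, SE 0.27) rose, and so did dpp (1.91, SE 0.36) and hh (2.54, SE 0.29), the signals of the stem cell niche. Receptors and nuclear factors of the same pathways rose with them, among them ptc (3.09, SE 0.35), ci (3.13, SE 0.35), fz2 (3.20, SE 0.35), the glypican dally (2.65, SE 0.28) and the transcription factor bab2 (3.60, SE 0.37). The Notch ligand Dl (-2.48, SE 0.33), fz (-1.76, SE 0.31) and smo (-0.71, SE 0.19) fell.

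Follicle cell fate genes moved both ways, with more rises than falls. Of 37 genes 18 rose and 8 fell (median 0.63, or 0.39 after quantile normalization). The share of rises was above the 27.7% of all genes, and that of falls was close to the 20.1%. The early markers Fas3, from 10.3 and 9.09 TPM to 207 and 253 TPM (4.43, SE 0.27), and cas (4.54, SE 0.31) and eya (2.78, SE 0.22), which separate stalk, polar and main body cells, rose, as did the Notch modifier fng (3.21, SE 0.24). The border cell factor slbo (-1.55, SE 0.28) and the ecdysone receptor genes EcR (-1.25, SE 0.34) and usp (-1.38, SE 0.19) fell. Falls were 4 without control input 1.

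Muscle sheath genes, from the contractile tissue around the ovary, rose almost throughout. Of 25 genes 23 rose and none fell (median 3.76), and their summed level was 803 and 904 TPM in the controls, 10004 TPM in bam RNAi and 9110 TPM in the mutant. Act87E, a muscle actin, was at 10.7 and 12.6 TPM in the controls and 156 and 184 TPM in the bam libraries (3.76, SE 0.16, adjusted p = 7.30e-06). The troponin genes TpnC73F (4.88, SE 0.23) and up (4.04, SE 0.20), the myosin light chain Mlc1 (4.06, SE 0.20) and the myosin heavy chain Mhc (4.85, SE 0.40) rose by like amounts. Tm1 and flr, used in many cells, did not pass.

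Blood cell and basement membrane genes rose in the same way. Of 23 genes 20 rose and 1 fell (median 3.42), with summed levels of 423 and 418 TPM in the controls, 3003 TPM in bam RNAi and 3129 TPM in the mutant. The peroxidasin gene Pxn was at 1.77 and 1.54 TPM in the controls and at 205 and 261 TPM in the bam libraries (6.45, SE 0.30, adjusted p = 9.80e-06). The matrix genes SPARC (4.31, SE 0.17) and Ppn (5.77, SE 0.40), and the scavenger receptor gene Sr-CI (4.69, SE 0.33) rose, and the hemocyte marker Hml went from 0.184 and 0.188 TPM to 17.2 and 15.7 TPM (3.88, SE 0.36). The gene that fell was crq (-0.45, SE 0.15), and it did not pass without control input 1 or without bam RNAi. Early follicle, muscle and blood cell genes thus moved beside the germ cell genes in each bam library, and their part in the germ cell results was not tested.

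Many fat body and gut transcripts were higher, and their levels differed between the bam libraries. Of 21 fat body genes 10 rose and 2 fell, with a median of 2.63, which was 0.92 without the mutant and 3.48 without bam RNAi. After quantile normalization 6 rose and the median was 1.57. Likewise 6 rose without control input 1, and none fell without either control input or without bam RNAi. Without Yp1 the summed level of the list was 635 and 671 TPM in the controls, 1195 TPM in bam RNAi and 3918 TPM in the mutant. Lsp2, a larval serum protein, was at 0.125 and 0.515 TPM in the controls, 6.81 TPM in bam RNAi and 1449.7 TPM in the mutant (6.35, SE 1.93, adjusted p = 0.0276), a difference that stayed at 6.13 without control input 1 and 6.56 without control input 2 but no longer passed (adjusted p = 0.112 and 0.0816). Obp99b, a secreted odorant-binding protein, was likewise higher in the mutant, at 63.5 TPM in bam RNAi and 564 TPM in the mutant, while Obp99a was higher in bam RNAi, at 331 against 108 TPM. The carotenoid uptake gene ninaD (2.63, SE 0.34) and the lipid droplet gene Lsd-1 (2.96, SE 0.38) rose. Of 10 gut and oviduct genes 9 rose (median 3.49), with Npc2f (3.94, SE 0.25), the homeotic gene abd-A (3.70, SE 0.35), Npc2g (4.44, SE 0.98) and the octopamine receptor Octbeta2R (2.01, SE 0.29), and the count was 3 without control input 1, 4 without control input 2 and 3 after quantile normalization. Their median was 1.98 without the mutant. With no filter on low levels 9 of 14 gut and oviduct genes rose (median 3.21), and with a filter of 5 TPM 4 of 5 rose. When either bam library was left out, 8 members passed the filter of 1 TPM, so the filter bears on the share that rose.

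Of 17 heat shock genes 6 rose and 3 fell (median 0.17), near the shares and the median of all genes, and the median was 0.47 without control input 1. The small heat shock genes Hsp67Ba (4.81, SE 0.36) and Hsp23 (4.69, SE 0.64), Hsp68 (5.75, SE 0.85) and the cochaperone stv (3.69, SE 0.51) rose, and the germline-expressed Hsp26 fell (-2.03, SE 0.51), a fall that was lost, with the other 2 of the list, without control input 1. Of 15 antimicrobial genes 11 rose (median 2.25). The share of rises here, and among the cell death genes below, was above the 27.7% of all genes. The share of falls in each was under the 20.1%. Drs, an antifungal peptide, was at 16.8 and 2.40 TPM in the controls, 1759 TPM in bam RNAi and 181 TPM in the mutant (6.18, SE 1.08), and the Toll targets IM2 (2.58, SE 0.27) and IM3 (3.35, SE 0.56) and the recognition gene PGRP-SA (2.67, SE 0.35) rose. The antimicrobial rises were 6 without control input 1 and 7 without control input 2, and after quantile normalization 4 rose, 1 fell and the median was 0.94. Of 17 cell death genes 8 rose and 2 fell (median 0.64), with the stress factor Xrp1 (2.39, SE 0.35) and the TNF receptor wgn (2.85, SE 0.25) up and the caspase Dronc (-1.73, SE 0.25) and the relaxin-like hormone Ilp8 (-3.09, SE 0.24) down, and 4 rose without the mutant or without control input 2.

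The share of energy metabolism genes that rose was near that of all genes. Of 38 genes 12 rose and 5 fell (median 0.32, or 0.17 without control input 1), and the 5 falls, Tpi, Pglym78, Gapdh2, PyK and Eno, are all genes of glycolysis. Lactate dehydrogenase, Ldh, rose from 1.12 and 0.836 TPM to 9.05 TPM in bam RNAi and 32.8 TPM in the mutant (3.22, SE 0.50), Tpi (-1.08, SE 0.19) and Pglym78 (-0.92, SE 0.16) led the falls, and the succinate dehydrogenase subunit SdhC rose (1.13, SE 0.18). The rises were 3 without control input 1. Among falls with no list, the cytochrome P450 gene Cyp6a19 went from 569 and 425 TPM to 0.587 and 2.68 TPM (-7.67, SE 0.36), CG32642 from 261 and 227 to 0.113 and 1.09 TPM (-7.33, SE 0.74), and CG44005 from 118 and 99.9 to 0.171 and 0.844 TPM (-6.22, SE 0.25). The bam values of these 3 genes lay far under each control value.

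The bam libraries also differed from each other, and this has no test because each is a single library. By a rule of at least 3 log2 units and 20 TPM, 98 genes were higher in the mutant (1.12% of genes tested) and 19 were higher in bam RNAi (0.218%). The first set holds 11 chorion, 8 fat body, 7 vitelline membrane, 5 gut and 4 yolk genes. Besides Lsp2, its largest members were Fbp2, a fat body protein gene listed at 0 in each control, at 1.35 TPM in bam RNAi and 343 TPM in the mutant, CG13114 (0.368 and 127 TPM), fit (1.51 and 230.1 TPM), Cp38 (12.6 and 1093 TPM) and yellow-g (1.02 and 127 TPM). Fbp1, another fat body gene, was at 198 TPM in the mutant and 0.232 TPM in bam RNAi. It was not tested, because the mutant alone of the 8 libraries reached 1 TPM. The second set was led by CG4210, at 54.0 and 60.6 TPM in the controls, 87.8 TPM in bam RNAi and 0.460 TPM in the mutant, and it held the antimicrobial gene Def (519 and 17.2 TPM), CG43112 (211 and 6.56 TPM), Nplp3 (386 and 17.0 TPM) and the complement-like gene Tep4 (362 and 20.9 TPM). Transcripts of the eggshell and yolk lists made up 5.99% and 9.29% of all TPM in control inputs 1 and 2, 1.14% in bam RNAi and 7.99% in the mutant.

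**Figure D3:**
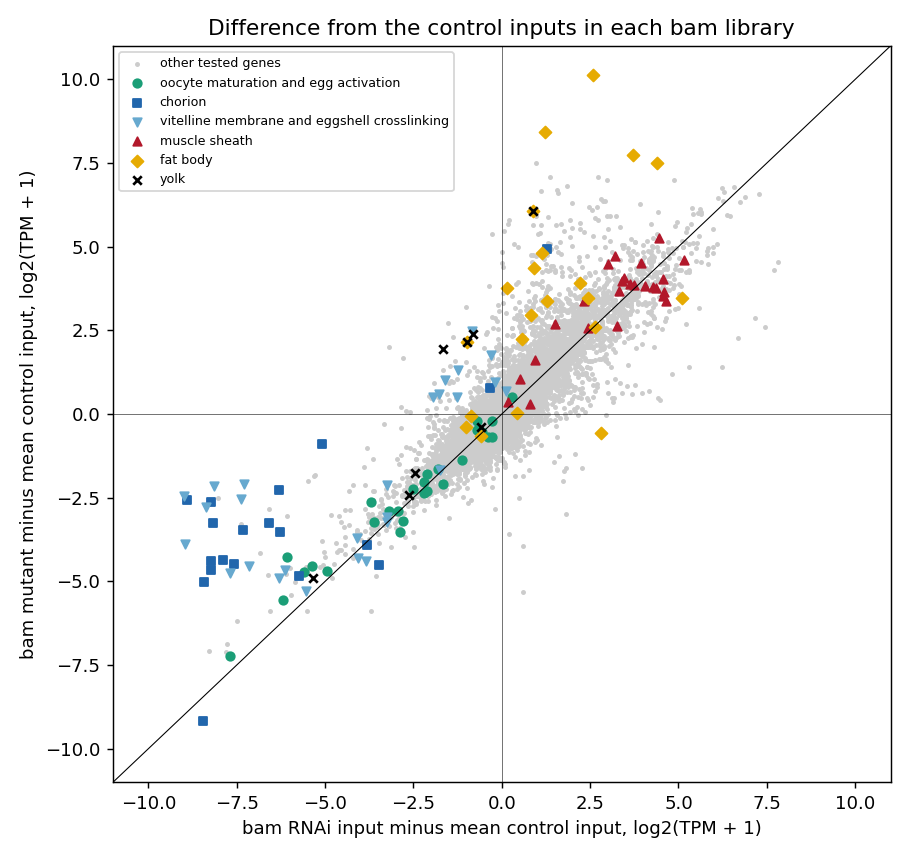
Difference from the mean of the control inputs in the bam RNAi input (x axis) and the bam mutant (y axis) for each tested gene, in log2(TPM + 1), with the line of equality. Oocyte and muscle genes lie along the line, while chorion, fat body and yolk genes lie mostly above it, higher in the mutant. The axes share the control libraries, so some scatter along the line is common to them.

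The leading genes were next set beside the other 20 libraries of total and input mRNA, polysome libraries left out. For 7 of the 12 largest rises each bam library lay above all 20, namely RpS19b, cona, blanks, RpL22-like, Pxn, CG13403 and CG32971. RpS19b ranged from 1.25 to 38.5 TPM there, with the highest value in a tst RNAi input. The values of 1 hfp mutant library reached 364 TPM for CG14932 and 520.5 TPM for RpS10a, above those of the bam libraries. For 5 of the 12 largest falls each bam library lay under all 20, namely osk, dhd, pgc, Cyp6a19 and CG44005. The lowest osk value elsewhere was 318 TPM and the lowest dhd value 391 TPM. Of the other 7 falls, all but CG32642 are on the eggshell lists, and each had its lowest value elsewhere in a young wild type library, with Cp15 at 10.2 TPM there. These comparisons cross groups that differ in age, genotype and preparation, and carry no test.

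**Figure D4:**
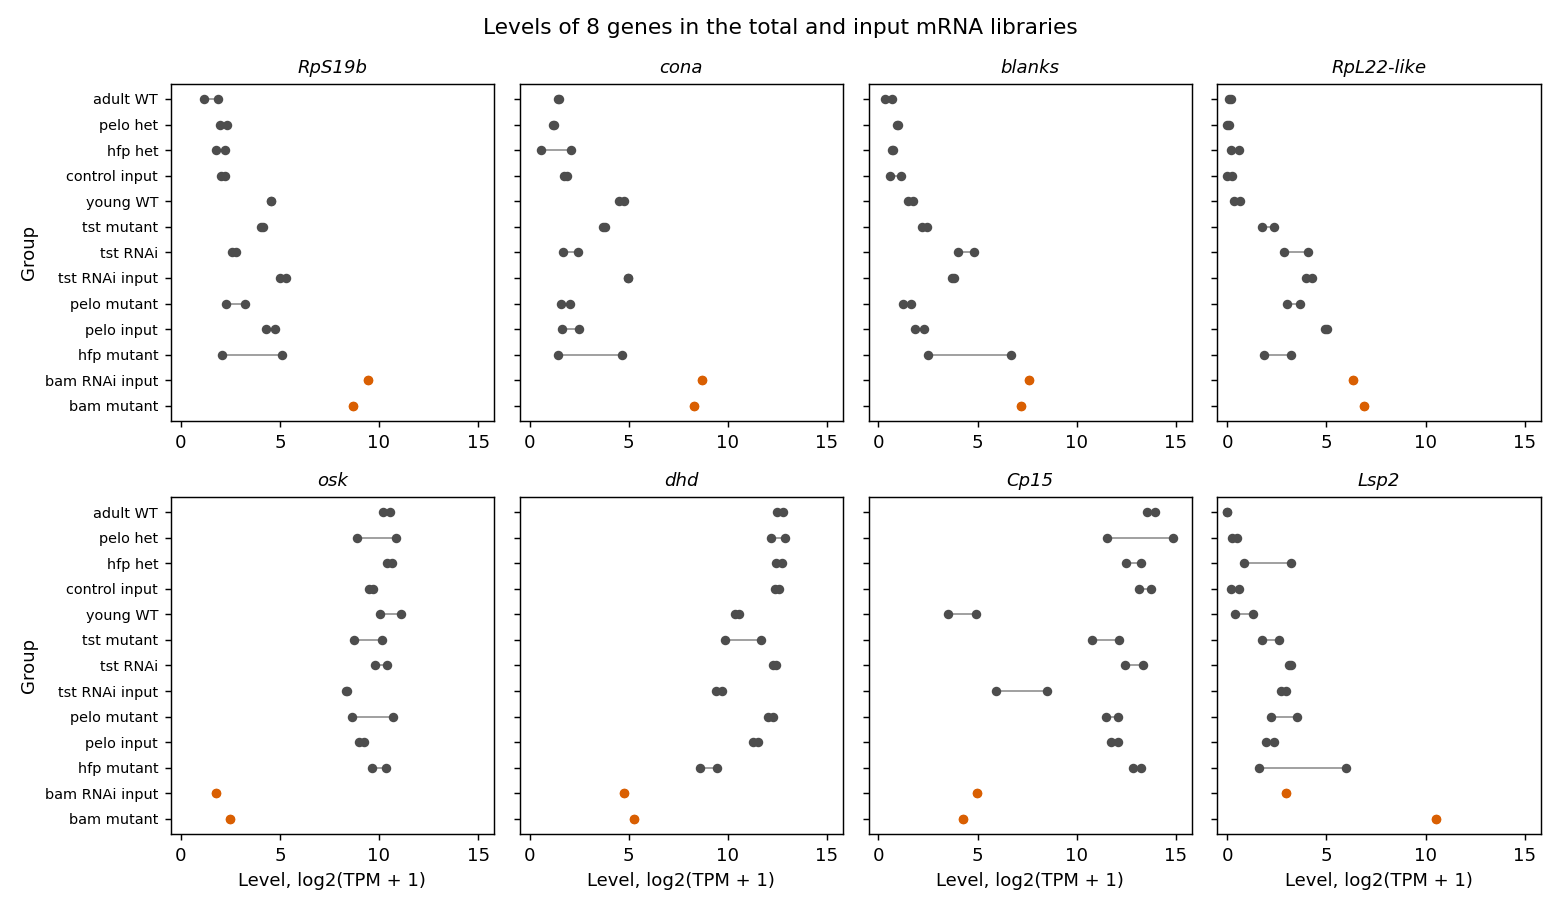
Level of 8 named genes in each group of total or input mRNA, on a log2(TPM + 1) axis, with 1 point per library and a line between the libraries of a group. Bam libraries are orange. RpS19b, cona, blanks and RpL22-like are highest in the bam libraries, osk and dhd are lowest there, Cp15 is as low in young wild type, and Lsp2 is highest in the bam mutant.

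By chromosome arm the share of calls varied little between the large arms. Rises made up 26.6% of tested genes on X, 27.9% on 2L, 30.4% on 2R, 26.5% on 3L and 26.6% on 3R, and falls 22.3%, 20.7%, 16.9%, 21.1% and 20.5%. On chromosome 4, 28 of 76 genes rose and 7 fell (median 0.44). Of 314 genes not annotated as protein-coding 100 rose and 47 fell. The share of rises was a little above the 27.7% of all genes, and that of falls a little under the 20.1%. Whether the counting used strand is not given in the sources used here, so antisense genes and their partners cannot be told apart.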

How the data were processed

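Whole-ovary poly(A) RNA was sequenced as strand-specific libraries, per the labels' protocols. HISAT2 2.0.5, genome build dm6 and featureCounts 1.5.1 are named in the submitters' processing notes. For the annotation, any filter on genes and the formula for TPM, nothing is given in the sources. The deposited values were log2 of TPM with an offset of 0.5, as the values of the files themselves show, and the bam mutant came in a file of its own with the same 9251 genes and the same total. Gene names were joined between files, with 5 names that a spreadsheet had turned into dates matched by hand. Of the names 8664 were RefSeq symbols, 555 older names and 32 unmatched. Coordinates are those of the RefSeq Release 6 annotation. Values were turned back to TPM, and log2(TPM + 1) was fitted with limma 3.58.1 in R 4.3.3 (eBayes with a mean-variance trend). The fit took 8 libraries in 4 groups, the bam libraries, the control inputs, the pelo mutant inputs and the tst RNAi inputs. The fit left 4 residual degrees of freedom and a median SE of 0.247. Genes needed 1 TPM in 2 of the 8 libraries, and p values were adjusted by the Benjamini-Hochberg method over 8734 genes at a threshold of 0.05. The filter counts the bam libraries, so a gene low in the others can enter through its levels in the bam libraries. The fit was tested on simulated data.

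Named genes were bam, the 12 largest rises and 12 largest falls among genes that passed with groups that did not overlap and a mean of 10 TPM or more on the higher side, plus up to 4 genes per list with the smallest adjusted p, or the 2 most abundant where none passed. Other genes named were chosen after their values were seen. A result for 1 gene of the rule is not reported here. The libraries and the 27 gene lists were chosen with earlier results of these data known. Alternatives were another offset, other filters, scalings and variance estimates, a fit of the 4 libraries alone, and leaving out each library. Figures were drawn with matplotlib 3.10.9 in Python 3.11.15. Depth is unknown, since TPM carry no read counts, so no counting interval is given.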

Additional observations from a re-analysis of the deposited data

Results flagged for a closer look

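Among the genes named by rule, the cell type markers and the 8 genes furthest apart between the bam libraries in each direction, the bam RNAi input and the bam mutant lay on opposite sides of the control inputs for 7. Each bam genotype is 1 library, so these differences were not tested. Over all genes, 8 were at least 1 log2 unit above the controls in bam RNAi and as far below in the mutant, and 12 the reverse. Values are the mutant minus the RNAi library in log2(TPM + 1). The yolk protein genes Yp1 (3.14), Yp2 (3.61) and Yp3 (3.19) and the vitelline membrane gene Vm26Aa (2.61) were below each control in bam RNAi and above each control in the mutant. CG4210 (-5.93), the cytochrome P450 gene Cyp6a17 (-4.78) and asRNA:CR45822 (-4.55) were above each control in bam RNAi and below each control in the mutant.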

How the results depend on the processing

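Leaving out each library in turn gave 1721 to 2267 rises and 1099 to 1669 falls, 2820 to 3936 genes in all, with the lowest counts without control input 1. The fit of the 4 libraries alone gave 1140 falls. Genes agreeing upward numbered 959 with an offset of 5 TPM and 944 after quantile normalization. With the offset of 5 TPM, 48 genes were much higher in the mutant and 11 in bam RNAi, and after quantile normalization 30 were much higher in bam RNAi. Some medians changed sign by more than their spread between libraries of a group. They were those of all genes (-0.026, quantile), the recombination list (-0.033 with a filter of 5 TPM, -0.18 quantile) and the decay list (0.031 quantile). The yolk list did so as well, from -0.17 to 0.78 without bam RNAi. Without the mutant its median kept its sign and was -1.32. Smaller sign changes included the decay list with equal library medians (0.0023) and the yolk list with no filter (0.15) or without control input 2 (0.018). The cause was not tested. Most named genes were chosen for large differences or small adjusted p in these same data, so how well they hold says little about other genes. Of 111 named genes 106 kept their direction and their side of the threshold under every alternative that could be fitted, and no value reversed in 1534. Lsp2, wit, Octbeta2R, Npc2g and RpL17 lost their call under 1 or more, and Lsp2 lost it under 6. Counts of agreement and of differences between the bam libraries have no value without a bam library. No paired analysis was possible, because the 4 libraries differ in genotype and the labels match no bam library with a control input. Depth is unknown, so the limit it sets on weakly expressed genes cannot be given.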
